A study of Arabidopsis thaliana with 75 samples.

Results

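Ethylene is perceived in Arabidopsis by a family of receptors in the endoplasmic reticulum membrane, ETR1, ERS1, ETR2, ERS2 and EIN4. Without the hormone these receptors keep the Raf-like kinase CTR1 active, and CTR1 holds the pathway off. When ethylene binds, the membrane protein EIN2 is released from this block and the transcription factors EIN3 and EIL1 accumulate, since the F-box proteins EBF1 and EBF2 no longer send them for degradation. ERF1 is a transcription factor gene switched on by EIN3, and EBP encodes an ERF-type factor that binds the GCC element of ethylene-responsive promoters. In the root epidermis, ethylene and auxin are both known to promote root hair formation.

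The 10 genes described here are the receptor genes ETR1 (AT1G66340), ERS1 (AT2G40940), ETR2 (AT3G23150), ERS2 (AT1G04310) and EIN4 (AT3G04580), with CTR1 (AT5G03730), EBF1 (AT2G25490), EBF2 (AT5G25350), ERF1 (AT3G23240) and EBP (AT3G16770). They were chosen by locus and not by any measured value, and all 10 were among the 21440 loci measured. RNA came from root tip epidermis of 5-day-old seedlings, and each array holds the pooled, protoplasted and fluorescence-sorted cells of many seedlings. Every line carried the same WER::GFP transgene, which marks the developing epidermis, so the sorted fraction depends on where the WER promoter is active. Affymetrix ATH1 arrays were used, 75 in all, in 25 groups of 3 arrays labelled as biological replicates, and the deposited values are log2 signals.

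Of those groups, 21 were hybridised in Michigan. These were wild type (Columbia), 17 mutant lines (rhd6-1, cpc-1 try-82, gl3-1 egl3-1, ttg1-13, wer-1 myb23-1, gl2-1, cobl9-1, cow1-3, csld3-1, ire1-2, lrx1-4, mrh1-1, mrh2-1, mrh3-3, myc1-1, rhd2-1 and bhlh66-1) and 3 groups of rhd6-1 seedlings moved to new plates of MS medium, MS with the ethylene precursor 1-aminocyclopropane-1-carboxylic acid (ACC) or MS with the auxin indole-3-acetic acid (IAA). The other 4 groups repeated cpc try, gl3 egl3, ttg and wer myb23 at Duke. The rhd6 and cpc try roots form few or no hairs, whereas gl3 egl3, ttg and wer myb23 form hairs on nearly every epidermal cell and are called the hairy lines below. The ACC-treated and IAA-treated groups share the rhd6 mutation with their MS control, and all 3 lack normal RHD6 function.

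Array medians ran from 6.50 to 6.86 in Michigan and from 6.02 to 6.14 at Duke, and the facilities were analysed apart. RHD6 signal lay between 4.12 and 6.98 on the rhd6 arrays, treated or not, against 9.41 to 9.69 in wild type. Across 20 Michigan mutant groups, 14 had a disrupted gene below every wild-type array on all 3 arrays, whereas TRY in cpc try (11.68 to 11.75) and MRH1 in mrh1 (11.14 to 11.39) lay above wild type, and an allele that leaves a transcript cannot be checked in this way. Libraries that stood apart from their group were the Michigan library labelled gl3 egl3 replicate 2, in which GL2 read 8.52, inside the wild-type range of 7.81 to 9.08, against 2.92 and 4.79 on the other arrays of the line, and rhd6 + IAA replicate 3, with the lowest median of the Michigan arrays (6.50). GL2 at the wild-type level was not confined to that gl3 egl3 library, since Michigan wer myb23 read 7.96, 8.94 and 7.10. Replicates differed most among the lrx1 arrays in Michigan (lowest correlation 0.898) and the wer myb23 arrays at Duke (0.913). Duke wer myb23 replicate 2 had a mean of 6.73 over the stress genes listed below, against 7.83 and 8.22 on the other arrays. Its root cap marker mean was 7.34 against 10.26 and 8.58. In sorted bulk RNA, a change in the number of cells of a type and a change in RNA per cell cannot be told apart.

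The first question was whether supplying the ethylene precursor altered the expression of the receptors and signalling genes in rhd6 epidermis. With ACC, 9 of the 10 genes had a higher mean than with MS, and the median difference over the 10 was 0.73 on the log2 scale against -0.04 over all 21440 genes. None of the 10 passed a 5% false discovery rate over all genes, using limma with Benjamini-Hochberg adjustment, a rule that 0.779% of all genes passed. At an unadjusted p under 0.05 there were 6 of the 10, and 8.25% of all genes, and at 0.01 there were 3 of the 10 (ETR2, CTR1 and EBF2), and 2.71% of all genes. In 6 genes all ACC arrays lay above all MS arrays and in EIN4 all lay below, a separation without overlap that 32.6% of all genes showed in one direction or the other.

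Among the receptor genes, ETR2 had the greatest difference. Its log2 signal was 6.76, 6.05 and 5.58 on the MS arrays and 7.89, 7.44 and 7.56 on the ACC arrays. Every ACC array was above every MS array, although the MS arrays themselves were spread over more than 1 log2 unit. The difference was 1.51 ± 0.40 (SE, n = 3 and 3), or 2.84-fold, with a limma adjusted p of 0.0606 that missed the threshold. ETR2 passed it in a fit of only these 2 groups (adjusted p = 0.0316) and without MS replicate 1 (1.82; adjusted p = 0.0408). By size of the increase ETR2 ranked 282 of 21440.

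The subfamily I receptor genes, which keep a histidine kinase domain, differed less. ERS1 was 9.58, 9.25 and 9.45 with MS and 9.78, 9.89 and 10.001 with ACC, without overlap between the treatments. The ERS1 difference was 0.46 ± 0.19, or 1.38-fold (adjusted p = 0.475). ETR1, the founding member of the family, stood at 7.43, 7.32 and 7.30 with MS and 7.36, 7.52 and 7.65 with ACC. Its ranges overlapped, and the interval of the difference, -0.36 to 0.68, included 0.

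Of the remaining subfamily II receptor genes, ERS2 read 5.99, 5.47 and 5.69 with MS and 6.63, 5.99 and 6.46 with ACC. These values met at 5.99, and the difference of 0.64 ± 0.30 had an adjusted p of 0.571. EIN4 was the single gene of the 10 with a lower mean after ACC. It gave 8.40, 8.53 and 8.45 with MS and 8.23, 8.33 and 8.30 with ACC, a narrow gap of -0.17 ± 0.22 (adjusted p = 0.847).

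CTR1, the kinase immediately below the receptors, was tightly replicated with ACC. Its values were 8.57, 8.36 and 8.61 on MS and 9.08, 9.14 and 9.06 on ACC. All ACC arrays exceeded all MS arrays, by 0.58 ± 0.18 on average (1.5-fold), with an unadjusted p of 0.00259 and an adjusted p of 0.181.

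The F-box genes were both higher on all ACC arrays, with different scatter. EBF2 was at 5.53, 5.05 and 4.77 with MS and 6.67, 6.13 and 7.02 with ACC, and it ranked 288 of all genes by size of the increase. The EBF2 difference was 1.49 ± 0.49, or 2.81-fold (adjusted p = 0.233, and 0.0274 in a fit of only these 2 groups). EBF1 stood at 8.32, 8.33 and 7.27 with MS and 8.74, 8.84 and 9.0 with ACC. Its difference of 0.89 had an SE of 0.65, in a gene whose MS replicate 3 alone was about 1 log2 unit under the others.

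Of the transcription factor genes, ERF1 was 4.17, 4.36 and 3.81 with MS and 5.70, 4.34 and 6.07 with ACC. Replicates 1 and 3 with ACC were well above the control arrays and replicate 2 was at the control level, so the groups overlapped. The ERF1 difference was 1.26 ± 0.53, or 2.39-fold (adjusted p = 0.483). EBP read 8.92, 8.37 and 8.81 with MS and 9.88, 9.56 and 9.12 with ACC, without overlap, and differed by 0.82 ± 0.49 (1.76-fold, adjusted p = 0.668).

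**Figure D1:**
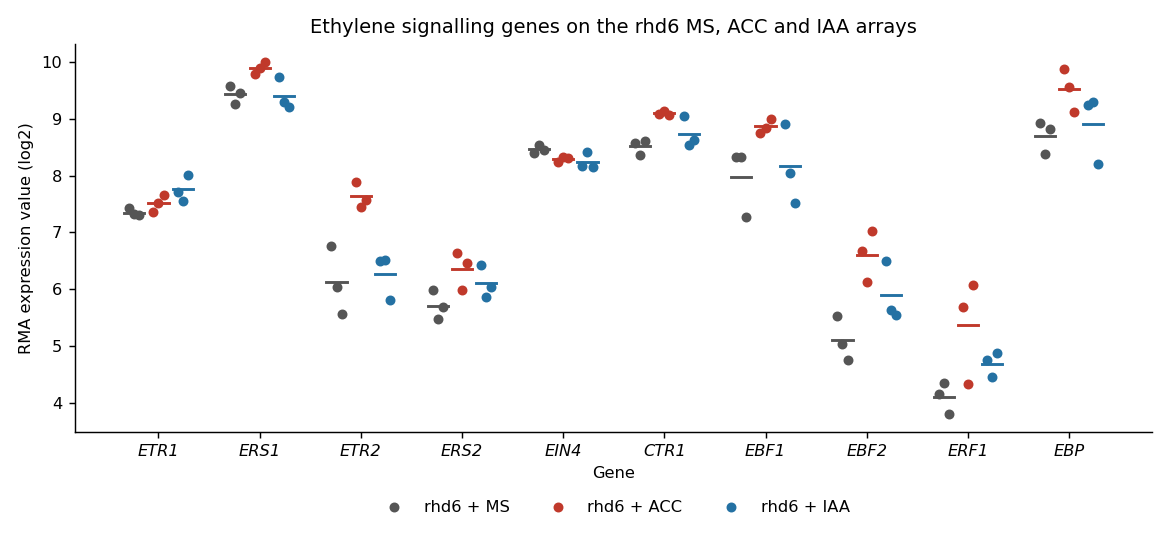
Log2 signal of the 10 genes on each array of rhd6 seedlings moved to MS, MS with ACC or MS with IAA; points are arrays and lines are group means of 3. For ETR2, ERS1, CTR1, EBF1, EBF2 and EBP the ACC points lie wholly above the MS points, whereas EIN4 lies wholly below and ETR1, ERS2 and ERF1 overlap.

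The second comparison set IAA against the same MS arrays, so a high or low MS array moves both hormone comparisons together. None of the 10 genes passed the 5% false discovery rate with IAA (limma with Benjamini-Hochberg adjustment), which 2.78% of all genes passed. At an unadjusted p under 0.05 there were 0 of the 10 and 26.5% of all genes. The median difference over the 10 was 0.21 against 0.01 over all genes. ETR1, EBF2 and ERF1 had all IAA arrays above all MS arrays, and 31.9% of all genes were separated without overlap in either direction.

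ETR1 read 7.70, 7.55 and 8.02 with IAA, which was above its MS arrays by 0.41 ± 0.26 (adjusted p = 0.318). EBF2 was at 6.51, 5.63 and 5.55 with IAA, higher than MS by 0.78 ± 0.49 or 1.72-fold (adjusted p = 0.309). ERF1 gave 4.75, 4.46 and 4.88, a difference of 0.59 ± 0.53. None of these 3 separations passed the test.

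ETR2 was 6.50, 6.52 and 5.82 with IAA, which lay inside the range of its MS arrays. The ETR2 difference was 0.15 with a 95% interval of -0.66 to 0.96, so an increase as large as that measured with ACC was outside the interval. ERS1 (9.72, 9.28 and 9.20), CTR1 (9.04, 8.53 and 8.62), EBF1 (8.91, 8.05 and 7.52), EBP (9.25, 9.29 and 8.20) and ERS2 (6.44, 5.87 and 6.05) also overlapped MS. In ERS1, CTR1, EBF1, ERS2 and EBF2 the highest IAA array was replicate 1. EIN4 (8.17, 8.41 and 8.15) was lower than MS by 0.22 on average, with 1 IAA array inside the MS range.

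Set directly against each other, the hormones differed most in ETR2, which was higher with ACC than with IAA by 1.36 ± 0.40 (95% interval 0.54 to 2.17; 2.56-fold; unadjusted p = 0.00157). ERS1 was higher with ACC by 0.49 ± 0.19 (unadjusted p = 0.0137). CTR1 was higher by 0.36 ± 0.18, with an interval of -0.01 to 0.73. In these 3 genes every ACC array was above every IAA array, whereas the other 7 overlapped. The adjusted p over all genes was 0.992 or more for each of the 10 (limma with Benjamini-Hochberg adjustment), and 0.014% of all genes passed the 5% false discovery rate. A separation without overlap was shown by 8.95% of all genes.

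**Figure D2:**
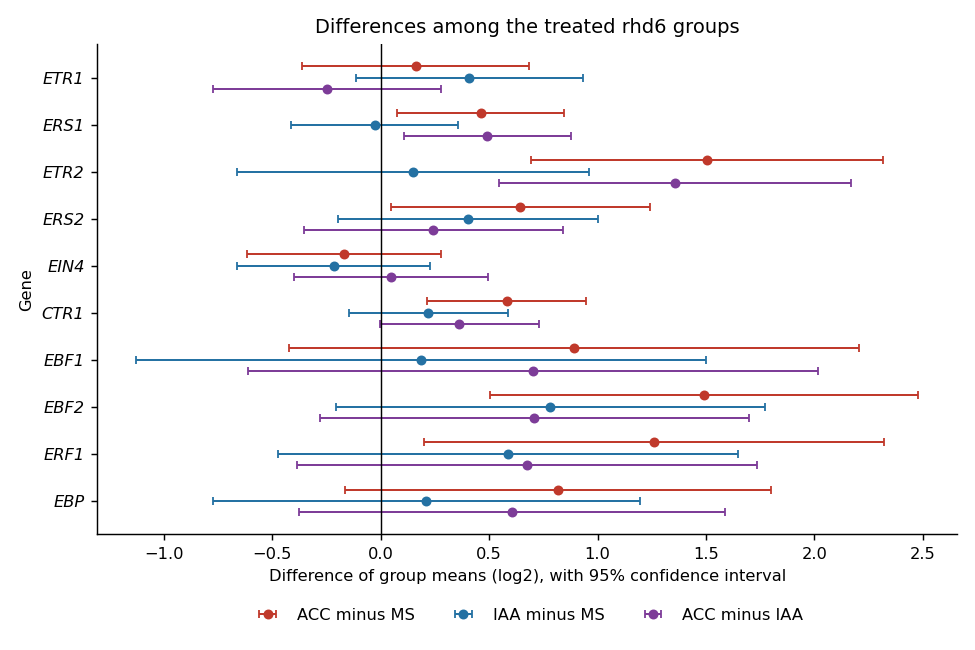
Differences in log2 signal between rhd6 groups with 95% confidence intervals from limma, for ACC against MS, IAA against MS and ACC against IAA. The ETR2 interval lies above 0 for ACC against MS (0.69 to 2.32) and for ACC against IAA (0.54 to 2.17), and it spans 0 for IAA against MS.

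Other genes of ethylene synthesis, transduction and response, 46 measured loci in all, were examined in the same way. Here 4 were called higher with ACC and 0 lower, against 0.779% of all genes called in either direction, and the median over the list was 0.52. ACO1 encodes an ACC oxidase, an enzyme that turns ACC into ethylene. It rose from 7.24, 6.20 and 6.01 with MS to 8.91, 9.15 and 8.95 with ACC, or 5.74-fold (adjusted p = 0.00635), and the arrays of the treatments were widely separated.

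ARGOS and its homologue ARL, which encode endoplasmic reticulum proteins that dampen ethylene sensitivity, rose 2.85-fold and 2.68-fold (adjusted p = 0.014 and 0.018). EDF3, a RAV-family transcription factor gene that responds to ethylene, rose 1.80-fold (adjusted p = 0.0172). The central transducers did not pass the test: EIN2 differed by 0.42, EIN3 by 0.20 and EIL1 by 0.32 on the log2 scale, with adjusted p of 0.624 or more. Of the list, 39 of 46 had a higher mean with ACC than with MS and 39 of 46 with IAA than with MS, from the same MS arrays. Of the same 46 genes, 6 had a higher mean with MS than in untransferred rhd6, whose arrays carry labels of another series. The part of the MS arrays in these directions was not tested. The 4 calls became 0 without ACC replicate 2 or MS replicate 3 and 1 without ACC replicate 1 or MS replicate 2, and they became 11 in a fit of only these groups.

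With IAA 5 of the 46 were called higher and 0 lower, against 2.78% of all genes called in either direction, with a list median of 0.50. EDF3 rose by 0.92 (adjusted p = 0.013) and RAN1, the copper transporter that equips the receptors with their metal cofactor, by 0.75 (adjusted p = 0.037). ACO4, a further ACC oxidase gene, rose 3.87-fold, the ERF-family gene ERF105 rose 2.83-fold, and the ACC synthase gene ACS7 rose 2.29-fold (adjusted p = 0.0439, 0.0458 and 0.0489). ACS7 was dim, at 3.87, 3.42 and 3.35 with MS and 5.88, 4.16 and 4.18 with IAA. Its IAA replicate 1 was the single array of these over 5, the dim limit used here. None of the list was called once rhd6 + IAA replicate 3, the array that stood apart, was left out, nor without IAA replicate 1 or MS replicate 3, nor in a fit of only these groups. The count was 1 without MS replicate 1, 2 without MS replicate 2 and 11 without IAA replicate 2. Between ACC and IAA, 0 of the 46 were called, and the list median was -0.05.

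**Figure D3:**
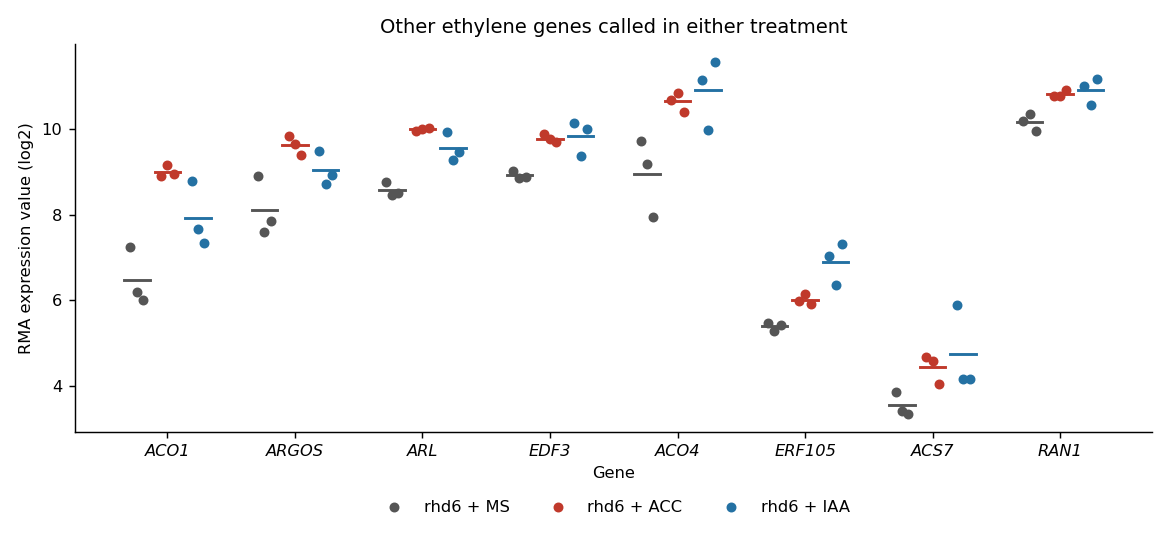
Log2 signal on each rhd6 array for 8 other ethylene pathway genes called with ACC or with IAA; points are arrays and lines are means of 3. ACO1 lies between 6.01 and 7.24 with MS and between 8.91 and 9.15 with ACC, and its IAA arrays are spread from 7.35 to 8.78.

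Other signals also differed between the hormone-treated and the MS arrays. The mean log2 signal over 5 root hair markers (RHD6, EXPA7, PRP3, COBL9 and LRX1) ran from 5.73 to 7.02 with MS, from 8.70 to 9.10 with ACC and from 8.21 to 8.89 with IAA. Of these markers 4 of 5 were called higher with ACC and 5 of 5 with IAA, against 0.779% and 2.78% of all genes called. Over 11 genes of wounding and protoplast stress the mean was 9.14 to 9.28 with MS, 9.67 to 9.87 with ACC and 9.71 to 10.03 with IAA, and 0 of the 11 were called in either comparison. Root cap markers averaged 8.92 to 9.65 with MS, 9.42 to 10.09 with ACC and 9.81 to 10.38 with IAA, again with 0 called. Early auxin response genes averaged 7.79 to 8.44 with MS, 8.19 to 9.08 with ACC and 9.03 to 9.28 with IAA, and of these 9 genes 0 were called with ACC and 1 with IAA (SHY2, an Aux/IAA repressor gene, by 1.47; adjusted p = 0.034). The epidermis markers WER, GL2 and TTG1 averaged 9.55 to 9.69 with MS, 9.32 to 9.47 with ACC and 9.19 to 9.45 with IAA. This mean was lower without overlap, with 0 called, but TTG1 went the other way, by 0.12 with ACC and 0.08 with IAA. GL2 with IAA overlapped MS. Of all single genes, 32.6% with ACC and 31.9% with IAA were separated from MS in one direction or the other. The ground tissue and stele marker lists had 0 called. Untransferred rhd6 arrays carry labels of another series. Their means were 9.53 to 9.69 for stress, 10.20 to 10.87 for root cap and 9.03 to 9.39 for epidermis. All MS arrays thus lay below untransferred rhd6 for stress and root cap and above it for epidermis. Its root hair and early auxin means (6.12 to 7.85 and 7.95 to 8.73) overlapped MS. The part of these signals in the differences of the ethylene genes was not tested.

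The MS-treated rhd6 seedlings were also set against rhd6 seedlings that had not been moved. On the MS arrays 2 of the 46 other pathway genes were lower, RAN1 by 0.80 (adjusted p = 0.0296) and EDF3 by 0.74 (adjusted p = 0.041), and the list median was -0.33. Of 11 stress genes 1 was called lower (JAZ1 by 0.40, limma adjusted p = 0.0435). Of 3 root cap markers 1 was called lower, and the list median was -1.23. Of the 10 genes, 0 were called (limma with Benjamini-Hochberg adjustment; 0 also at an unadjusted p under 0.05), against 1.83% and 21.7% of all genes. Differences ran from -0.75 for EBF2 and ERF1 to 0.35 for EIN4. ETR1 alone was separated, with all MS arrays below all rhd6 arrays by 0.20 on average, and 31.6% of all genes were separated in one direction or the other. The arrays of these groups carry labels of different series, so from these groups alone transfer and array series cannot be told apart. A fit with array series as a factor takes the series effect from the other Michigan groups. It called 0 of the 10 genes and turned the ETR2 difference from 0.34 to -0.34.

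The next comparison asked whether ethylene genes differ between epidermis that makes hairs and epidermis that does not, with the mean of the 3 hairy lines set against cpc try at each facility. EBP was higher in the hairy lines at both. At Duke it read 5.99, 5.28 and 5.39 in cpc try, 6.42, 6.90 and 7.36 in gl3 egl3, 7.74, 7.43 and 8.09 in wer myb23 and 9.62, 9.56 and 10.21 in ttg. Every array of the hairy lines was above every cpc try array, and the hairy lines themselves formed a graded order without overlap between them. The mean difference was 2.59 ± 0.24, or 6.04-fold (adjusted p = 0.000166, limma with Benjamini-Hochberg adjustment).

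In Michigan EBP read 6.0, 6.28 and 6.50 in cpc try, 8.14, 9.0 and 7.87 in ttg and 8.70, 9.31 and 8.86 in wer myb23. The Duke order was not repeated, since ttg averaged 8.34 and wer myb23 8.96, with overlapping arrays. In gl3 egl3 EBP was 7.10, 9.30 and 5.40, so this line spread over nearly 4 log2 units, with its replicate 3 below cpc try. Its highest array was the library labelled gl3 egl3 replicate 2, in which GL2 was at the wild-type level. The mean difference was 1.93 ± 0.40, or 3.80-fold (adjusted p = 0.000447), and without that library it was 1.59 (adjusted p = 0.000381). In a fit of only the 4 lines compared, EBP missed the threshold (adjusted p = 0.0593).

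ETR2 and EIN4 were each called at 1 facility. ETR2 was 6.46, 6.81 and 7.29 in Michigan cpc try, and over the Michigan hairy lines it averaged 5.78, lower by 1.07 ± 0.33 (2.11-fold lower; adjusted p = 0.0226). The single hairy array inside the cpc try range was wer myb23 replicate 1, at 6.96. ETR2 missed the threshold after removal of cpc try replicate 2, cpc try replicate 3 or gl3 egl3 replicate 3 (adjusted p = 0.0766, 0.223 and 0.0524) and in the fit of only the lines compared (0.0698). At Duke ETR2 differed by -0.46 in the same direction (adjusted p = 0.212), with cpc try at 7.47, 8.11 and 7.94.

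EIN4 averaged 7.35 over the Duke hairy lines and 8.03 in cpc try, lower by 0.68 ± 0.17 (adjusted p = 0.0351). The lower mean lay in 2 of the 3 lines. EIN4 was 6.31, 6.77 and 6.76 in gl3 egl3 and 7.06, 7.05 and 7.29 in ttg, both below every cpc try array (7.78, 8.21 and 8.10), whereas wer myb23 was 8.57, 8.51 and 7.85 and had the highest arrays of the facility. EIN4 missed the threshold when cpc try replicate 2, cpc try replicate 3 or any single ttg array was removed, with adjusted p from 0.0507 to 0.179. In Michigan all 4 lines overlapped, and EIN4 read 8.35, 7.48 and 8.01 in gl3 egl3.

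In all, 2 of the 10 genes were called in Michigan and 2 at Duke, against 11.9% and 8.87% of all genes, and arrays of the hairy lines and cpc try separated without overlap in 8.86% and 5.14% of genes. A test of the difference between facilities called 0 of the 10 genes (adjusted p 0.427 or more) and 2.33% of all genes. The root hair marker mean was 5.18 to 5.51 in Michigan cpc try and 9.92 to 11.08 in the Michigan hairy lines. Root cap, ground tissue and stele markers had 0 called at either facility. In Michigan 2 of the 11 stress genes were lower in the hairy lines (LOX3 by 1.25 and CYP81F2 by 1.6), and of 9 early auxin response genes 4 were lower and 1 higher, while at Duke 0 of either list were called. Of 3 epidermis markers (WER, GL2 and TTG1), GL2 and TTG1 were lower at each facility, in a list that holds genes disrupted in these lines. The part of these signals was not tested. EBF1 was 10.74, 8.38 and 8.59 on the Duke wer myb23 arrays, a single high array.

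Of the 46 other pathway genes, 2 were called higher and 7 lower in the Michigan hairy lines, and 5 higher and 3 lower in the Duke ones. The shares of all genes called were 11.9% and 8.87%. EIL2, a relative of EIN3, was higher at both, by 2.00 (adjusted p = 0.000682) and 0.82 (adjusted p = 0.0138), with every hairy array above every cpc try array. ACO1 was lower in the Michigan hairy lines by 2.35 (adjusted p = 9.92e-05) and by 0.95 at Duke, where it was not called (adjusted p = 0.134). RAV1, a further gene of the RAV family, was higher at Duke by 1.6 (adjusted p = 0.0045) and by 0.11 in Michigan (adjusted p = 0.878). These 3 genes were picked for mention after their values were seen.

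Among 170 pairs of a gene and a mutant line set against wild type, 2 were called, against 0.911% of all such pairs, and all 17 comparisons share the same 3 wild-type arrays. EBP was 9.46, 8.59 and 9.62 in wild type, and each cpc try array was lower. The decrease in cpc try was 2.96 ± 0.49 on the log2 scale, or 7.79-fold (adjusted p = 2.27e-05; 5.05% of all genes were called in this line). In gl3 egl3 the mean was lower by 1.95 (adjusted p = 0.0886; 0.163% of all genes were called), and without the library labelled gl3 egl3 replicate 2 it fell by 2.97 (adjusted p = 1.1e-05). EBP was not called in the other lines, where its differences from wild type ran from -0.90 in gl2 to 0.18 in cow1. The means of gl2 (8.33) and ttg (8.34) were under that of wild type (9.22), but their arrays overlapped those of wild type.

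The rhd6 line, which like cpc try makes few hairs, gave EBP at 8.81, 8.22 and 9.34. This was within or near the wild-type range and above every cpc try array. In a comparison added after these values were seen, EBP was higher in rhd6 than in cpc try by 2.53 ± 0.49, or 5.77-fold (adjusted p = 0.000566; 5.08% of all genes were called). The arrays of these lines carry labels of different series, so from these groups alone line and array series cannot be told apart. This comparison was not fitted with array series as a factor. The root hair marker mean was 6.12 to 7.85 in rhd6, 5.18 to 5.51 in Michigan cpc try and 10.40 to 10.59 in wild type. Root cap markers averaged 10.20 to 10.87 in rhd6 and 9.75 to 9.97 in cpc try. Epidermis markers averaged 9.03 to 9.39 in rhd6 and 10.03 to 10.175 in cpc try. The part of these signals in the EBP difference was not tested. The closest relatives of EBP, RAP2.2, RAP2.12, HRE1 and HRE2, had 0 called in either hormone comparison and 0 in either comparison of hairy lines with cpc try.

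**Figure D4:**
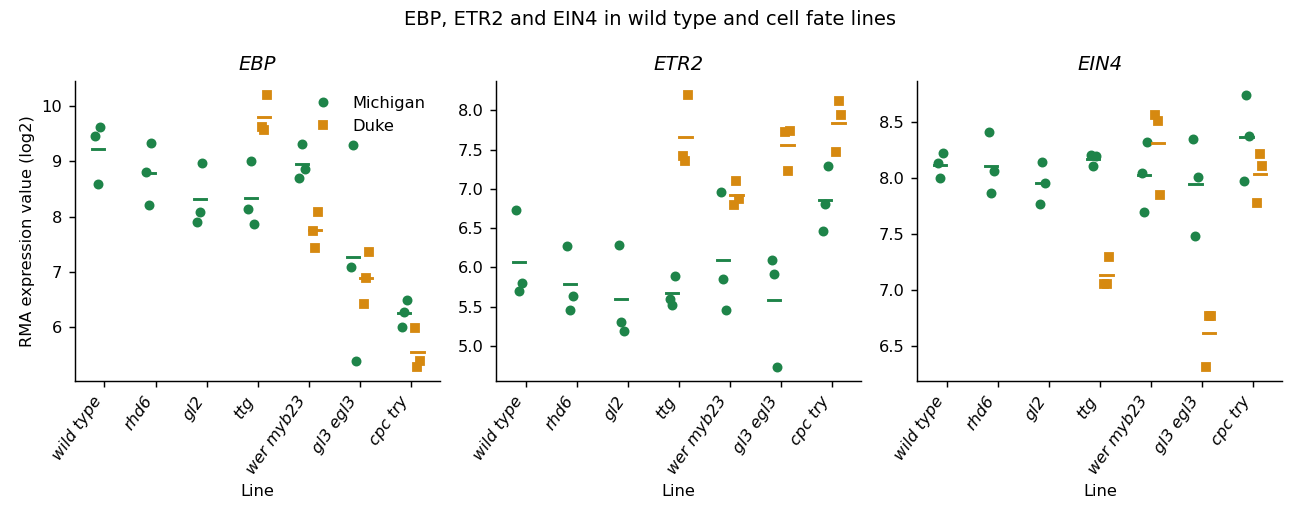
Log2 signal of EBP, ETR2 and EIN4 on each array of wild type and 6 cell fate lines; circles are Michigan arrays, squares are Duke arrays and lines are means of 3. EBP is lowest in cpc try at both facilities (means 6.26 and 5.55), is spread from 5.40 to 9.30 in Michigan gl3 egl3, and stands at 8.79 on average in rhd6.

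The other call was CTR1 in mrh3, at 9.18, 9.15 and 8.77 against 8.71, 8.07 and 8.38 in wild type. All mrh3 arrays were above all wild-type arrays, by 0.64 ± 0.18 (adjusted p = 0.0423; 2.76% of all genes were called in mrh3). It missed the threshold after removal of mrh3 replicate 1 or 2, or of wild type replicate 2 or 3, with adjusted p from 0.146 to 0.222, and in the fit of only these groups (adjusted p = 0.221). Also in mrh3, ERF1 was 4.42, 3.97 and 7.25, a single high array. ERS1 was low in mrh1, at 8.81, 8.89 and 9.20 against 9.68, 9.37 and 9.90 in wild type, without overlap but with an adjusted p of 0.343.

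Across the 21 Michigan group means, the genes varied to different extents. EBP had a range of 3.26 log2 units between its highest and lowest group, wider than 97.6% of all genes. EBF2, EBF1, ETR2 and ERF1 ranged over 2.23, 2.16, 2.09 and 1.82. The range was under 1 unit for ERS1, ERS2, ETR1, EIN4 and CTR1. The lowest group for EBF1 was bhlh66, at 8.28, 5.81 and 6.03. The 8.28 came from replicate 1, in which bHLH66 itself read above every wild-type array. In lrx1 EBF1 was 4.94, 8.24 and 7.86, with a single low array.

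The rhd6 seedlings on ACC were the group with the highest mean for 8 of the 10 genes, ERS1, ETR2, ERS2, CTR1, EBF1, EBF2, ERF1 and EBP. Of all genes, 2.69% had their highest mean in that group. Some leads over the second group were narrow, such as ERS1 (9.891 against 9.886 in cpc try) and ERS2 (6.36 against 6.32 in wild type). CTR1 (9.09 against 9.03 in mrh3) and EBP (9.52 against 9.40 in cow1) also led narrowly, while EBF2 led by more (6.61 against 5.90 in cpc try). Hairless cpc try was second for ERS1, ETR2, EIN4, EBF1 and EBF2, while it was lowest for EBP. ETR2 in cpc try (mean 6.86) was below the ACC group (7.63) and above the MS group (6.13). The exceptions were ETR1, highest in cow1 (7.86) and lowest in csld3 (7.05), and EIN4, highest in rhd6 on MS (8.46) and lowest in lrx1 (7.73). EBF1 and EBF2 followed one another over the 21 means (Pearson r = 0.86, given as a description over groups that share a facility and array type).

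**Figure D5:**
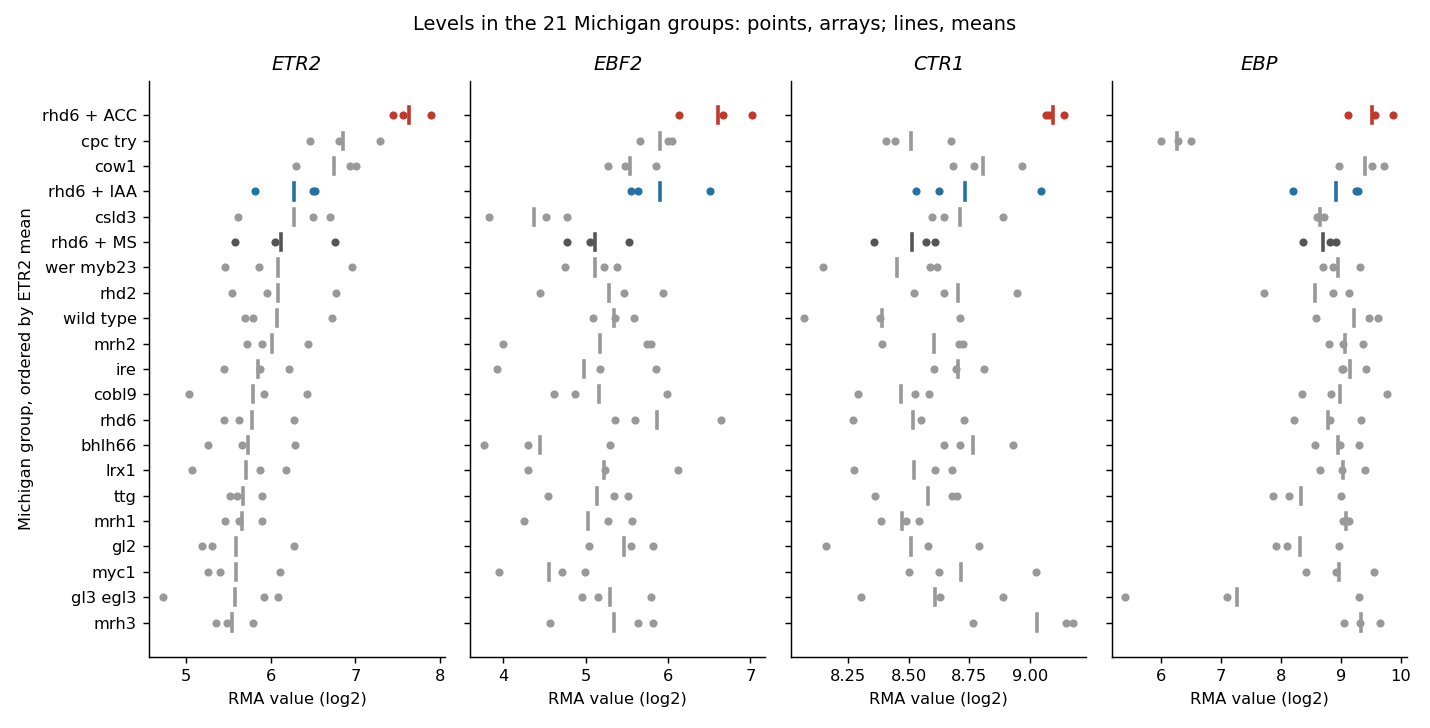
Log2 signal of ETR2, EBF2, CTR1 and EBP on each array of the 21 Michigan groups, ordered by the mean of ETR2; points are arrays and lines are means of 3. The rhd6 + ACC group is at the high end for all 4 genes, while cpc try is high for ETR2 (6.86) and lowest for EBP (6.26).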

How the data were processed

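The authors computed expression values from ATH1 arrays by robust multi-array analysis with quantile normalization and a custom probe set definition of 1 probe set per locus, and the deposited values are on the log2 scale. Values were used as deposited, without rescaling, after 64 control probe sets were set aside. Which arrays were normalized together is not given in the sources used here, so the 63 Michigan and 12 Duke arrays were fitted separately. Each fit used limma 3.58.1 in R 4.3.3 with 1 mean per group (lmFit, eBayes) and Benjamini-Hochberg adjustment over 21440 genes, called at a 5% false discovery rate, and the procedure was tested on simulated data. Intervals are 95% confidence intervals. With 3 arrays per group, the number of arrays limits the precision. Every one of the 10 genes is named, with those pathway genes called in a hormone comparison and EIN2, EIN3 and EIL1; others are said to be picked later. The genes and the gene lists were chosen with earlier results of these data known. Of 99 listed loci 96 were used, after matching symbols to RefSeq annotation, and a withheld item is not reported here. Alternatives were leaving out each replicate, a replicate block, other thresholds and scalings, a filter on dim genes, array series and smaller fits. Added after seeing the data were a fit of the 9 hormone arrays without a block, EBP in rhd6 against cpc try, and a joint fit of all 75 arrays for the difference between facilities.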

Additional observations from a re-analysis of the deposited data

How the results depend on the processing

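With ACC against MS, the 0 of 10 genes called became 3 at an unadjusted p under 0.01, 2 in a fit of only the groups compared (ETR2 and EBF2), and 1 (ETR2) with a replicate block, a replicate block in a fit of the 9 hormone arrays, arrays shifted to the same median, genes with a mean under 5 left out, or array series as a factor; leaving out single replicates gave 0 to 1. ETR2 was called in 7 of 14 alternatives, with differences of 1.23 to 1.82 and adjusted p from 0.0316 to 0.592. The cause of these shifts was not tested. Over all genes, 167 calls with ACC became 1105 in the fit of only the groups compared, 205 in the 9-array fit with a block and 260 in that without, whereas 597 calls with IAA became 0, 0 and 194, so which hormone had more calls turned with the fit. ACC against IAA gave 1 at an unadjusted p under 0.01, while IAA against MS and MS against untransferred rhd6 stayed at 0 in every alternative run.

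For the hairy lines in Michigan, the 2 calls became 1 at 2-fold and a 0.5% false discovery rate, 0 in the fit of only the groups compared and 1 to 2 without single replicates. At Duke they became 1 at 2-fold with either the 5% or the 0.5% rate, and 1 to 2 without single replicates. The 2 of 170 pairs against wild type became 5 at an unadjusted p under 0.01, 1 each at 2-fold with the 5% or 0.5% rate, in the fit of only the groups compared, with quantile normalization and with array series as a factor, and 1 to 3 without single replicates.

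Replicate numbers were not taken to pair the samples, since not every same-numbered pair of the groups compared correlated over 0.1. Correlations of same-numbered deviations were 0.305, 0.290 and 0.043 for MS and ACC, and 0.064, -0.397 and -0.260 for MS and IAA. At Duke they were 0.199, 0.429 and 0.296 for cpc try and wer myb23, and from -0.13 to 0.25 for cpc try and the other hairy lines. Under the block, ETR2 with ACC had an adjusted p of 0.0441.

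Small differences that turned sign were ERS1 with IAA (0.0881) and EIN4 for ACC against IAA (-0.0546) with arrays shifted to the same median, EBF2 at Duke (0.0118) with quantile normalization, and ERS1 (0.0318) and ETR2 (-0.34) for MS against untransferred rhd6 with array series as a factor. Leaving out single replicates also turned the sign of small uncalled differences. With IAA against MS, ERS1 ran from -0.19 to 0.0732, ETR2 from -0.13 to 0.47 and EBF1 from -0.19 to 0.51, and EIN4 ran from -4e-04 to 0.13 for ACC against IAA. For the hairy lines against cpc try, CTR1 ran from -0.0123 to 0.12 and ERF1 from -0.24 to 0.0121 in Michigan, and EBF2 from -0.16 to 0.0569 and ERF1 from -0.0934 to 0.17 at Duke. For MS against untransferred rhd6, CTR1 ran from -0.13 to 0.102 and EBP from -0.37 to 0.19. Of 959 alternatives for single genes, 902 kept direction and call and 24 turned sign, none of a called value. With MS, ERF1 lay under the dim limit of 5 on the log2 scale, and there are 3 arrays per group.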

Other observations

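Over the 21 Michigan group means, the genes whose pattern was most like that of EBP were AT5G57000 (Pearson r = 0.913), AT3G16750 (0.88) and AT4G01920 (0.841), chosen after their values were seen and given without a test.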
